A study of Mus musculus with 70 samples.

Results

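The genes described here are 36 endoplasmic reticulum chaperones and stress genes, named in a list and found by symbol among the 24346 genes of the processed table. All 36 had a value, and 34 passed the minimum mean of 1 FPKM (expression scaled to transcript length and to the mapped reads of the library) that 12994 genes passed. The list was chosen from results of these same libraries, after chaperones were seen among the genes of smallest p in 14-7-2 against sedentary, so the counts and fold changes of that contrast describe how the list was chosen and are not a test of it. The endoplasmic reticulum is the compartment where secreted and membrane proteins enter, fold and are checked. When unfolded proteins build up there, the sensors encoded by Ern1 (IRE1), Eif2ak3 (PERK) and Atf6 start the unfolded protein response, in which spliced Xbp1, Atf4 and cleaved ATF6 act as transcription factors for chaperones, folding enzymes and degradation genes. In neurons the same machinery serves the folding of receptors, channels and secreted peptides.

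RNA was sequenced from the dorsal hippocampus of 70 adult male C57BL/6J mice, 10 in each of 7 groups, with 5 of each group taken in each of 2 harvest cohorts. Exercise was voluntary wheel running, and a group is named by its days of initial exercise, of sedentary delay and of reactivating exercise. The sedentary mice (0-0-0) did not run; 0-0-2 ran for the last 2 days; 14-0-0 ran for 14 days; and 14-7-0 and 14-14-0 added a delay of 7 or 14 days, with 2 more days of running after the shorter delay in 14-7-2. All of these groups had a 3 min subthreshold acquisition session of the object location memory task (OLM) 1 h before tissue collection. Home cage mice, the remaining group, had neither exercise nor OLM. All mice were housed singly, with no transgene or drug named in the labels. Each library is bulk tissue, so fewer cells of a type and less RNA per cell cannot be told apart.

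Libraries that stood apart are named first, because they touch the values below. Neuronal markers were well expressed in the series, with a mean of 1321 FPKM for Snap25, 581 for Slc17a7 and 153 for Neurod6. In sedentary replicate 6, however, Slc17a7 stood at 17.1 FPKM and Neurod6 at 2.45. Its 7 neuronal markers summed to 1562 FPKM, the lowest of all libraries, and its 6 oligodendrocyte markers to 6891 FPKM, the highest of all. The main fits kept this library in the sedentary group. In 14-7-0 replicate 4 no signal (0 FPKM) was listed for 10279 genes, while the remaining 69 libraries had between 6243 and 7199 such genes. The relative depth of those 69, read from the step size of genes with a mean under 0.1 FPKM, lay between 0.342 and 1.47 times that of sedentary replicate 0. For 14-7-0 replicate 4 the same reading gave 0.0363, which is not reliable as an exact value. Markers of choroid plexus epithelium, a ventricular tissue that borders the hippocampus, differed most among libraries. All 10 were detected, and their sum ran from 24.4 to 372 FPKM in sedentary, from 36.8 to 16141 in 14-0-0, from 29.7 to 2151 in 14-7-0, from 37.7 to 2393 in 14-7-2, from 44.9 to 21905 in 14-14-0, from 25.6 to 11064 in 0-0-2 and from 70.4 to 15626 in home cage. The part of this tissue in the results was not tested beyond a fit that held their score as a covariate (the choroid plexus fit), whose counts are given beside comparisons whose calls it changes.

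Of the 36 members, 30 had at least 1 RefSeq promoter (250 bases before to 50 after the start site, GRCm38.p6), 33 promoters in all. Hyou1, Manf, Derl1, Hspa13, Sec61a1 and Atf6 had none. The endoplasmic reticulum stress element (ERSE), bound by ATF6 and XBP1 with NF-Y, was searched on both strands as CCAAT, 9 bases of any kind and CCACG. It was present in the promoters of 10 of the 30 members, against 39 of 32851 promoters in all (0.119%) and 14 of 12686 promoters of tested genes (0.11%). ERSE-II, searched as ATTGG, 1 base of any kind and CCACG, was present in those of Herpud1 and Dnajb11, against 0.0365% of all promoters. TGACGTGG, an XBP1 element, was present for Txndc5 (0.676% of all), and TGATGNAA, an element of ATF4 and its partners, for Herpud1, Trib3 and Txndc5 (3.97% of all). A match is a description of these letters and not a binding site. The matches of the members the results turn on follow, with the boxes in capitals, read 5′ to 3′ on the strand where the CCAAT box comes first and credited to RefSeq (GRCm38.p6). They are shown so that the shared element can be seen, and the calls of these genes are not support for it. Creld2 was called in the main fits only in 14-7-2 against sedentary, the contrast that led to the list. Canx is added as a member whose largest log2 fold change in size was -0.11.

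Hspa5, chr2:34772013-34772055, plus strand: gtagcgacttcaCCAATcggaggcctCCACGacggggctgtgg
Calr, chr8:84847063-84847105, plus strand: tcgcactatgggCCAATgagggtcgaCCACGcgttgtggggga
Hsp90b1, chr10:86705626-86705668, minus strand: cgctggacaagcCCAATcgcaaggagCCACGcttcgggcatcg
Hsp90b1, chr10:86705521-86705563, plus strand: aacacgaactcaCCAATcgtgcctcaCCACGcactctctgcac
Pdia6, chr12:17266479-17266521, plus strand: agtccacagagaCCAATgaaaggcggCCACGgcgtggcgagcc
Creld2, chr15:88819508-88819550, minus strand: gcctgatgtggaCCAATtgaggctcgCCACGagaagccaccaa
Syvn1, chr19:6046520-6046562, plus strand: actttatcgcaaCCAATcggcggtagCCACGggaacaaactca
Canx, chr11:50325788-50325830, minus strand: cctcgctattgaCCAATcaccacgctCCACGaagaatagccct

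Hsp90b1 was the only member with a pair of ERSE matches, which lie on opposite strands, 212 and 107 bases before its start site at their leftmost bases. The Hspa5 match began 65 bases and the Pdia6 match 98 bases before the start site. Derl3, Ero1lb and Dnajc3 also held the element, and their matches are not printed. Of the 9 tested members with an ERSE, 3 were lower than sedentary in 14-0-0, 2 in 14-7-0, 0 in 14-14-0 and 3 in 0-0-2. Of the 19 tested members whose promoters lacked it, 2, 5, 1 and 0 were lower, by the tests given below. Of all tested genes 3.04%, 1.66%, 1.75% and 1.23% were lower in these comparisons. Members without a promoter, such as Hyou1 and Manf, are in neither set, and the sets were not compared by a test.

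The members spanned a wide range of levels, given here per transcript length as mean FPKM over the 70 libraries. The folding chaperones were led by Calr, a calcium-binding lectin chaperone (181 FPKM), Hsp90b1, the lumenal HSP90 also called GRP94 (124), and Hspa5, the lumenal HSP70 also called BiP (109). Of the disulfide isomerases and folding enzymes, Pdia3 (90.9), the cyclophilin gene Ppib (72.8) and Pdia6 (54.6) were highest. Among the degradation and translocation genes Sel1l, the adaptor of the HRD1 ubiquitin ligase, stood at 40.4 FPKM and Edem1, which extracts misfolded glycoproteins, at 4.46. The sensors were low, with Atf6 at 18.6, Eif2ak3 at 6.79 and Ern1 at 2.05 FPKM, while the transcription factors Atf4 (80.6) and Xbp1 (34.7) were higher. The 2 members below the minimum were Derl3, at 0 to 1.62 FPKM, and Trib3, at 0 to 0.618 FPKM, each listed at 0 in 1 library.

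Hspa5 had its highest mean in home cage and its lowest in 14-7-2. In home cage its lowest, median and highest values were 97.9, 126 and 211 FPKM, in sedentary 94.7, 108 and 194, and in 14-14-0 78.9, 116 and 186. In 14-0-0 they were 82.3, 101.4 and 131 FPKM, in 14-7-0 75.8, 97.9 and 113, in 0-0-2 77.7, 94.1 and 136, and in 14-7-2 65.7, 89 and 117. All 7 groups overlapped, and home cage, sedentary and 14-14-0 each held at least 1 library above every library of the other 4 groups. Over the 34 tested members, the group mean was highest in home cage for 15 and lowest in 14-7-2 for 19, the second of which rests on the contrast that led to the list.

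**Figure D1:**
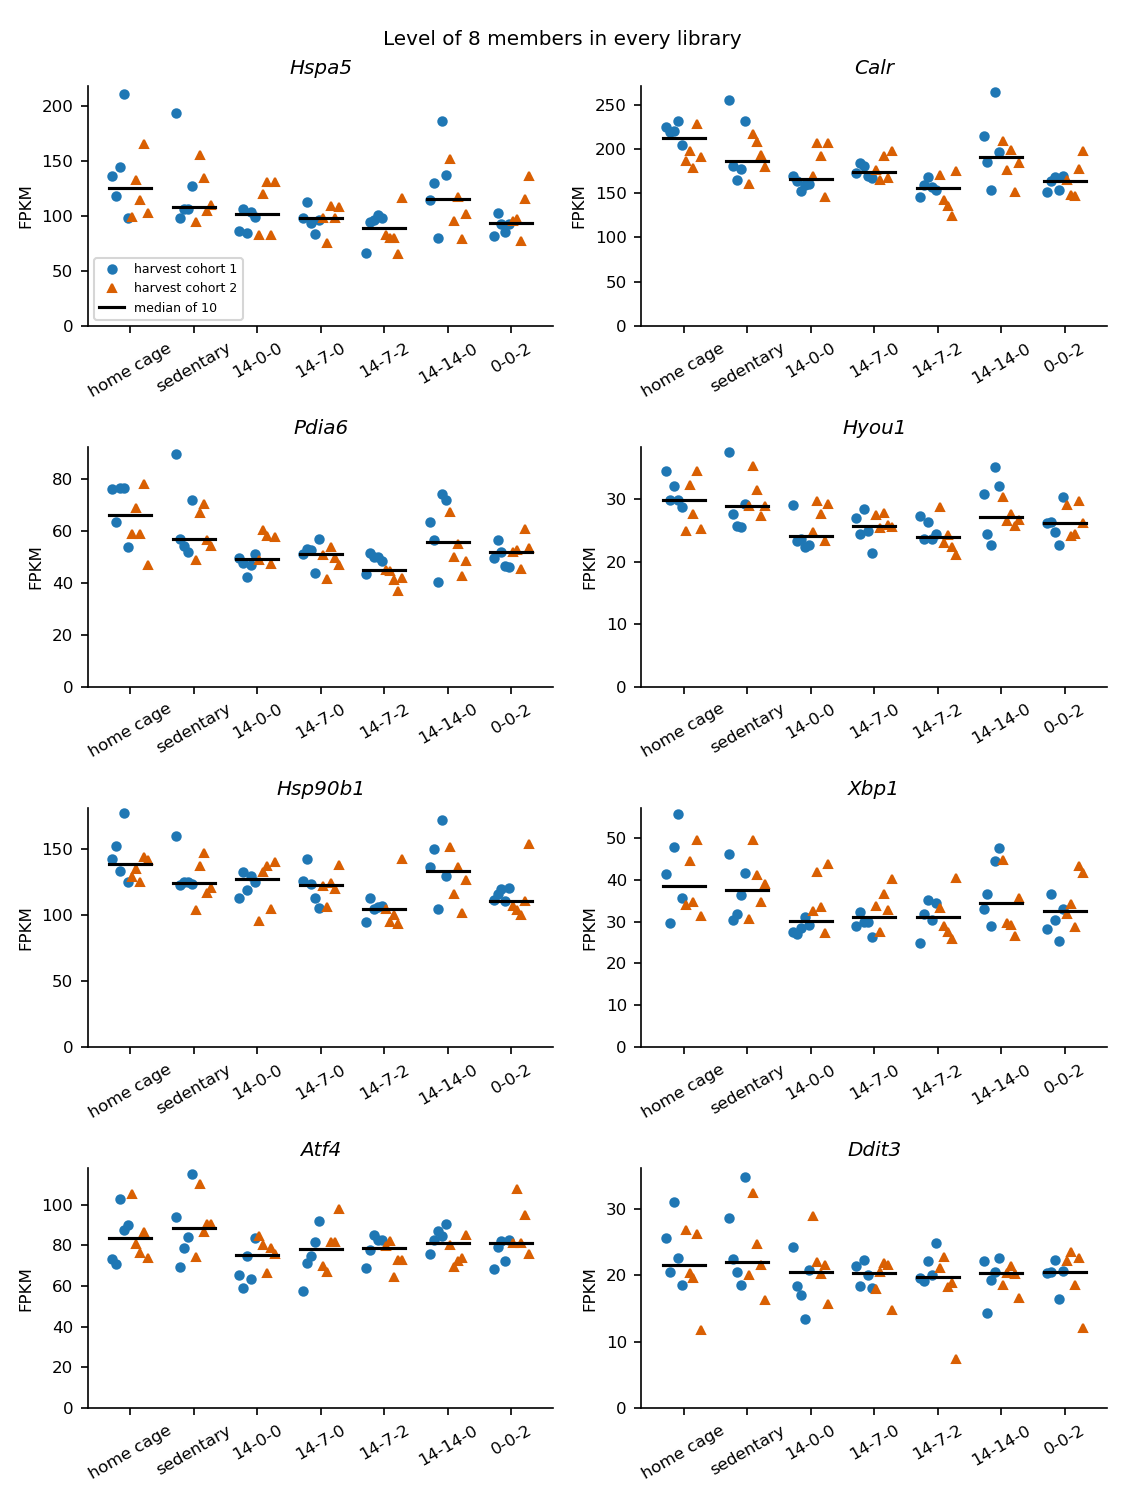
FPKM (y axis, from 0) of 8 members in every library of the 7 groups (x axis), with circles for harvest cohort 1, triangles for harvest cohort 2 and a bar at the median of 10. The groups overlap in every panel; Hspa5 reaches 211 FPKM in home cage and does not pass 117 FPKM in 14-7-2.

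The contrast of 14-7-2 with sedentary led to the list. It sets the initial 14 days of running, the 7 days of delay and the 2 reactivating days together against no running. In it 14 of 34 members were under an unadjusted p of 0.05 as lower and 0 as higher, which is what the choice used, beside 2.32% of all tested genes lower and 2.07% higher, and nothing is read from that difference. The largest log2 fold changes, on the scale of log2(FPKM + 0.1), were -0.47 ± 0.13 (SE, n = 10 per group) for Hspa5 and -0.44 ± 0.10 for Pdia6, a disulfide isomerase. Sdf2l1, a partner of the chaperone complex around BiP, had -0.40 ± 0.19, Creld2, a secreted stress-induced isomerase, -0.40 ± 0.15, and Pdia4, another isomerase, -0.36 ± 0.11. In Pdia6 the 14-7-2 libraries lay at 36.9 to 51.4 FPKM with a median of 44.8 and the sedentary ones at 48.9 to 89.6 with a median of 56.8. There 7 of 10 libraries of 14-7-2 lay below every sedentary library. In Creld2 the medians were 7.72 and 9.29 FPKM, and the sedentary range of 7 to 19 took in most of the 14-7-2 range of 6.2 to 9.78. The 14 were 7 of 11 folding chaperones, 4 of 9 folding enzymes, 1 of 8 degradation and translocation genes (Herpud1) and 2 of 6 sensors and transcription factors (Xbp1 and Atf4). The member median was -0.12, against 0.00 over all tested genes. The choroid plexus fit gave 15, with Dnajc3 and P4hb added and Sdf2l1 dropped.

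**Figure D2:**
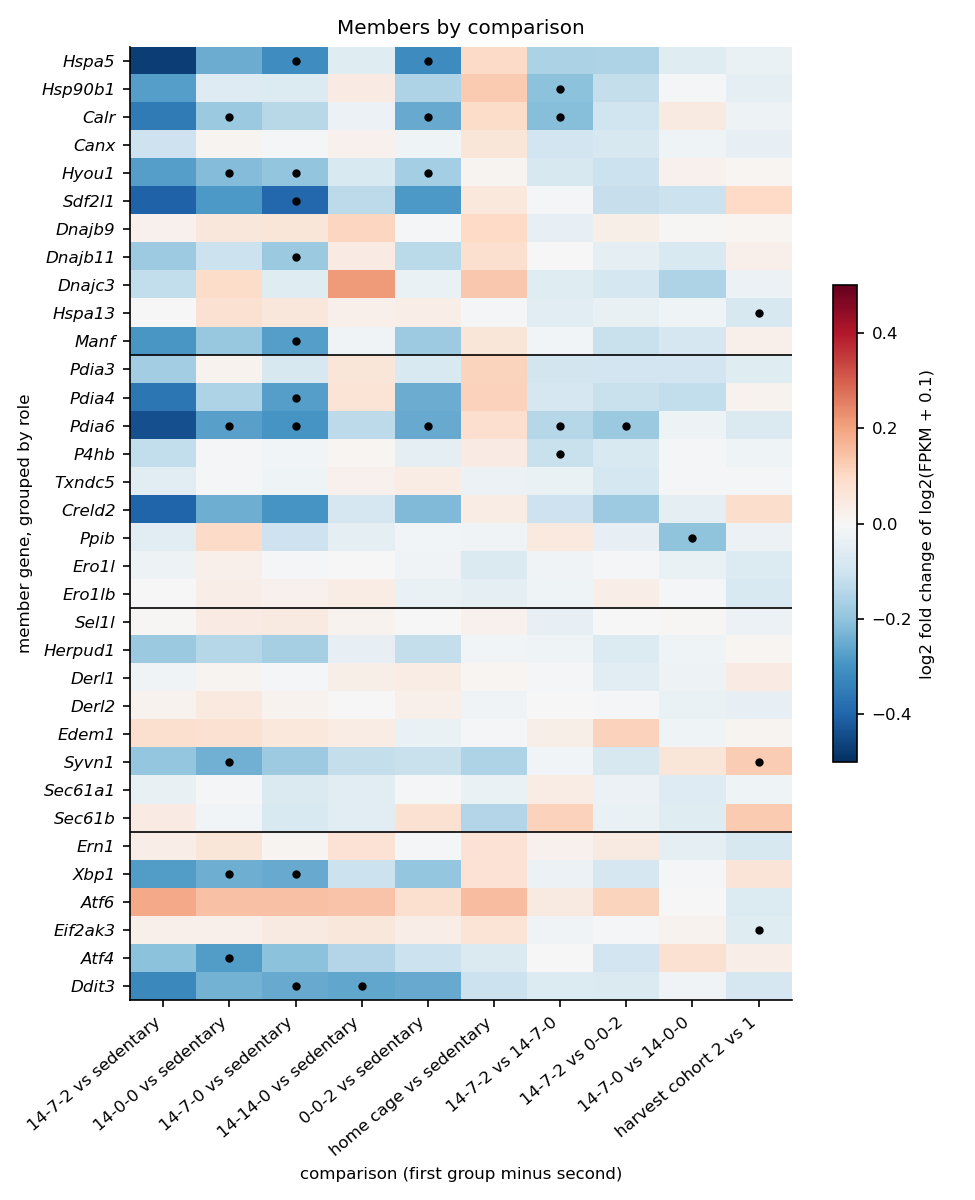
Log2 fold change of log2(FPKM + 0.1) (color, blue lower, red higher in the first group) of 34 members (rows, with lines between the 4 roles) in 10 comparisons (columns). Dots mark an unadjusted p under 0.05 and are not drawn for 14-7-2 against sedentary, which led to the list; the chaperones and folding enzymes are mostly blue in 14-7-2, 14-7-0 and 0-0-2 against sedentary, mixed in 14-0-0 and 14-14-0, and the sensors Ern1 and Eif2ak3 are near white.

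The other 4 running groups were each compared with the same 10 sedentary libraries, so their results share those libraries with each other and with the contrast that led to the list. High levels in single sedentary libraries therefore enter all of them. No member passed the Benjamini-Hochberg adjustment in any of the 10 comparisons, and the smallest adjusted p of a member against sedentary was 0.324. All p-values below are limma's unadjusted p, two-sided, unless they are named as adjusted.

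After 14 days of running with no delay (14-0-0), 6 of 34 members were lower and 0 higher, where 3.04% of all tested genes were lower and 6.11% higher. Atf4, the transcription factor of the PERK branch, fell by 0.28 ± 0.09 on the log2 scale (p = 0.00539, adjusted p = 0.324). Its values ran from 59.2 to 84.7 FPKM with a median of 75.1 in 14-0-0 and from 69.3 to 115 with a median of 88.7 in sedentary, so that all 10 libraries of 14-0-0 lay below the sedentary median. Pdia6 fell by 0.27 ± 0.10 (p = 0.0111), with 42.2, 49 and 60.3 FPKM as its lowest, median and highest values in 14-0-0. Hyou1, a large lumenal HSP70 that exchanges nucleotide on BiP, fell by 0.22 ± 0.08 (p = 0.0114). Its 14-0-0 values were 22.5, 24.2 and 29.8 FPKM against 25.5, 28.9 and 37.6 in sedentary, and 6 of the 10 lay below every sedentary library. Xbp1 (-0.24, p = 0.0327), Syvn1, the HRD1 ubiquitin ligase (-0.24, p = 0.0397), and Calr (-0.19, p = 0.0474) were also lower, and each lost its call without sedentary replicate 0, 4, 6 or 7. Hspa5 had -0.25 and did not pass. Without any 1 of those 4 sedentary libraries 3 members were lower, with 1 higher beside them without replicate 4, and the largest count over the 10 libraries left out in turn was 8. In harvest cohort 1 alone 5 were lower, and in cohort 2 alone 0 were lower and 1 higher. In the choroid plexus fit 9 were lower, Hspa5 among them at -0.45 ± 0.15 and Atf4 no longer.

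After 7 days of delay (14-7-0), 9 of 34 members were lower and 0 higher, where 1.66% of all tested genes were lower and 1.6% higher. They were 5 of 11 chaperones (Hspa5, Hyou1, Manf, Dnajb11 and Sdf2l1), 2 of 9 folding enzymes (Pdia6 and Pdia4) and 2 of 6 sensors and transcription factors (Xbp1 and Ddit3). Pdia6 fell by 0.30 ± 0.09 (p = 0.005, adjusted p = 0.968), with a lowest, median and highest value of 41.5, 50.9 and 56.9 FPKM in 14-7-0. There 9 of 10 libraries lay below the sedentary median, and 3 below every sedentary library. Hyou1 fell by 0.20 ± 0.07 (p = 0.0105), at 21.5, 25.7 and 28.5 FPKM, with all 10 libraries below the sedentary median of 28.9. Hspa5 fell by 0.31 ± 0.11 (p = 0.0122). Xbp1, whose spliced messenger encodes the transcription factor of the IRE1 branch, fell by 0.25 ± 0.09 (p = 0.0142), at 26.4, 31.2 and 40.1 FPKM against 30.4, 37.6 and 49.5 in sedentary. FPKM per gene do not separate spliced from unspliced Xbp1. Manf, a secreted neurotrophic factor that is kept in the lumen by BiP, fell by 0.28 ± 0.11 (p = 0.0164) and Pdia4 by 0.28 ± 0.11 (p = 0.0243). Pdia4, at 12.1, 15.8 and 19.1 FPKM in 14-7-0 and 13, 18.6 and 29.9 in sedentary, had 1 library below every sedentary one. Pdia6, Hyou1, Hspa5, Xbp1, Manf and Pdia4 kept their calls when any 1 of the 10 sedentary libraries was left out, while Dnajb11, Sdf2l1 and Ddit3 did not. The count ranged from 6 lower (without sedentary replicate 0, 4 or 7) to 13 lower, and was 8 without 14-7-0 replicate 4. It was also 8 in the choroid plexus fit, where Ddit3 had -0.25 ± 0.12 with p = 0.0583. Within harvest cohort 1 and cohort 2, at 5 against 5, 2 and 3 members were lower. Of the 34 members 19 had a negative and 5 a positive log2 fold change in both cohorts, beside 30.7% and 29.3% of all tested genes. The sedentary libraries of both cohorts entered the contrast that led to the list, so the cohorts are not separate support for it.

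After 14 days of delay (14-14-0), 1 of 34 members was lower and 0 higher, where 1.75% of all tested genes were lower and 3.19% higher. The 1 was Ddit3, which encodes CHOP, a factor of prolonged stress, at -0.26 ± 0.12 (p = 0.0471, adjusted p = 0.974). Its values ran from 14.3 to 22.7 FPKM with a median of 20.3 in 14-14-0 and from 16.2 to 34.8 with a median of 22 in sedentary. The ranges overlapped, and the call was lost without sedentary replicate 0, 1, 4, 6 or 7 and in the choroid plexus fit. Hspa5 had -0.06, Calr -0.03 and Hsp90b1 0.04, and the member median was 0.01. Dnajc3, a BiP cochaperone, had the highest member value at 0.21 and did not pass, and its highest library reached 31.7 FPKM.

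With 2 days of running and no earlier exercise (0-0-2), 4 of 34 members were lower and 0 higher, where 1.23% of all tested genes were lower and 1.14% higher. Calr fell by 0.25 ± 0.08 (p = 0.00526, adjusted p = 1.0), at 147, 164 and 197 FPKM as lowest, median and highest against 160, 187 and 255 in sedentary. Pdia6 fell by 0.25 ± 0.09 (p = 0.0127), at 45.4, 51.8 and 60.6 FPKM. Hspa5 fell by 0.32 ± 0.12 (p = 0.0183) and Hyou1 by 0.17 ± 0.07 (p = 0.0313). In Calr and Pdia6, 9 of the 10 libraries of 0-0-2 lay below the sedentary median, and in Hspa5 8 did. The first 3 kept their calls without any 1 sedentary library, and Hyou1 lost its call without replicate 0, 6 or 7 and in the choroid plexus fit, where 6 members were lower. Within cohort 1 there were 3 lower members, and within cohort 2 there were 0.

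Home cage and sedentary mice, which differ by the OLM session, had 0 of 34 members called in either direction at an unadjusted p under 0.05 in limma, and also 0 by Cyber-T, where 1.08% of all tested genes were lower and 1.22% higher in home cage. Hspa5 had 0.10, Hsp90b1 0.13 and Xbp1 0.07, all within the spread of these libraries, and Atf4 had -0.07 and Ddit3 -0.11. The member median was 0.04. Leaving out sedentary replicate 0 gave 1 higher member and leaving out replicate 4 gave 1 lower.

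**Figure D3:**
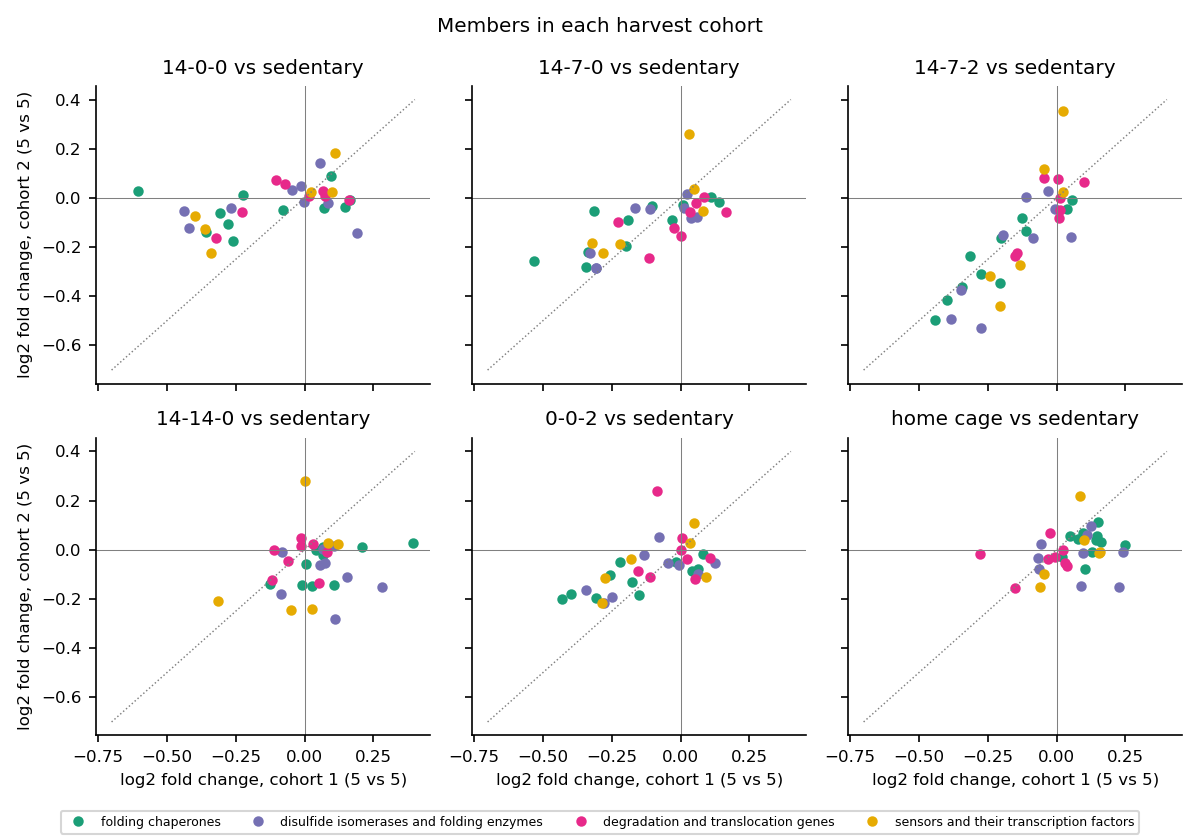
Log2 fold change of the 34 members in harvest cohort 1 (x axis) and harvest cohort 2 (y axis), 5 libraries against 5 in each, for 6 groups against sedentary, with colors for the roles and a dotted line of equal values. In 14-7-0 and 0-0-2 most chaperones and folding enzymes lie below 0 on both axes. Below 0 in both cohorts lie 19 members in 14-7-0 and 19 in 0-0-2, beside 30.7% and 23.9% of all tested genes. In 14-14-0 and home cage the chaperones and folding enzymes lie around 0. The sedentary libraries of both cohorts also entered the contrast that led to the list.

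The 2 reactivating days separate 14-7-2 from 14-7-0. This comparison and the next share the 14-7-2 libraries with the contrast that led to the list, so a low level there is in part what the list was chosen on. Between 14-7-2 and 14-7-0 4 of 34 members were lower and 0 higher, where 3.36% of all tested genes were lower and 2.03% higher. Calr fell by 0.21 ± 0.06 (p = 0.00175, adjusted p = 0.487), at 124, 155 and 175 FPKM in 14-7-2 and 164, 174 and 198 in 14-7-0. Of the 10 libraries of 14-7-2, 7 lay below every library of 14-7-0, and the call held in all 13 alternatives run. Hsp90b1 fell by 0.21 ± 0.07 (p = 0.00885), at 93.2, 104 and 142 FPKM against 106, 122 and 142. There 6 libraries lay below every library of 14-7-0 and 1 above all of them, replicate 9. P4hb, the founding disulfide isomerase, fell by 0.11 ± 0.04 (p = 0.021), at 40.3, 45 and 47.1 FPKM against 42.5, 48.1 and 57.2. Pdia6 fell by 0.14 ± 0.07 (p = 0.0394) and lost its call without 14-7-0 replicate 4, where the count was again 4. In cohort 1 alone 3 members were lower and in cohort 2 alone 2. The choroid plexus fit gave 6, with Hspa5 (-0.21 ± 0.08, p = 0.0189) and Pdia4 (-0.14 ± 0.06, p = 0.0239) added. Beside these, 2 of 6 oligodendrocyte, 2 of 7 microglial, 1 of 6 astrocyte and 1 of 5 endothelial markers were lower in 14-7-2, and their part in the result was not tested.

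Between 14-7-2 and 0-0-2, which share the 2 days and differ in the earlier exercise and delay, 1 of 34 members was lower and 0 higher, where 1.29% of all tested genes were lower and 1.15% higher. Pdia6 fell by 0.19 ± 0.06 (p = 0.00837, adjusted p = 1.0). All 10 libraries of 14-7-2 lay below the 0-0-2 median of 51.8 FPKM, and 6 below every library of 0-0-2. Its log2 fold change was -0.04 in cohort 1 and -0.33 in cohort 2, and this difference had an unadjusted p of 0.0175 and an adjusted p of 0.733 in limma's interaction test. Hspa5 had -0.15 and Creld2 -0.18, and neither passed. The call of Pdia6 was lost in a joint fit of the 7 groups, and in the choroid plexus fit Hsp90b1 was lower too (-0.12).

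The comparison of 14-7-0 with 14-0-0, a delay of 7 days against none, shares no library with the contrast that led to the list. In it 1 of 34 members was lower and 0 higher, where 3.6% of all tested genes were lower and 2.03% higher, a share of members near that of all genes. Ppib, the lumenal cyclophilin B that isomerizes prolines, fell by 0.20 ± 0.08 (p = 0.0153, adjusted p = 0.73), at 58.6, 68.6 and 88.6 FPKM in 14-7-0 and 68.7, 77 and 94 in 14-0-0. Of the 10 libraries of 14-7-0, 5 lay below every library of 14-0-0, and the log2 fold change was -0.22 in cohort 1 and -0.18 in cohort 2, without a call in either alone. Hspa5 had -0.06, Pdia6 -0.02 and Xbp1 -0.01. All 10 choroid plexus markers were lower in 14-7-0 here, with a median sum of 86 FPKM against 2306, and 4 of 6 oligodendrocyte markers and 1 of 7 microglial markers were higher. In the choroid plexus fit Ppib had -0.17 ± 0.09 with p = 0.0838, and the only calls were Calr (0.17 ± 0.06) and Hspa5 (0.16 ± 0.07), both higher in 14-7-0.

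Harvest cohort 2 was compared with cohort 1 over all 70 libraries, with group as a term, and is independent of the contrast that led to the list. In it 2 of 34 members were lower and 1 higher, where 8.29% of all tested genes were lower and 3.58% higher. Hspa13, a microsomal HSP70-like ATPase, had a log2 difference of -0.08 ± 0.03 (p = 0.0164, adjusted p = 0.278), Eif2ak3 of -0.06 ± 0.02 (p = 0.0195), and Syvn1 of 0.13 ± 0.05 (p = 0.02). Hspa13 had a lowest, median and highest value of 11.6, 16.5 and 20.5 FPKM in cohort 1 and 12.2, 15.4 and 17.9 in cohort 2, and Syvn1 of 11.5, 15.2 and 21.9 in cohort 1 and 10.9, 17.2 and 23 in cohort 2. The cohorts overlapped widely in both, and in Eif2ak3. In the choroid plexus fit 5 members were lower and 1 higher. The chaperones that were lower in the running groups hardly differed between cohorts, with -0.03 for Hspa5 and Calr, 0.01 for Hyou1 and -0.07 for Pdia6. No member's group difference passed a test of its change between cohorts after adjustment, in the 8 comparisons other than the one that led to the list (smallest adjusted p = 0.733), and 5 tests had an unadjusted p under 0.05.

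Single members of every role differed little between groups. Of the 34 members 10 had a log2 fold change of at most 0.1 in size in all 9 comparisons between groups. They were the sensors Ern1 and Eif2ak3, the degradation genes Sel1l, Derl1 and Derl2, the translocon subunit Sec61a1, the oxidases Ero1l and Ero1lb, which reload the isomerases, and Txndc5 and Hspa13. In Eif2ak3 the group medians lay between 6.64 and 7.13 FPKM, and in Ern1 between 1.96 and 2.24. Sec61b, a translocon subunit of wider spread (19.1 to 56.7 FPKM over all libraries), and Dnajb9, a BiP cochaperone that holds IRE1 inactive (18.8 to 34.8 FPKM), were called in 0 comparisons. Atf6 had positive values against sedentary in all 5 running groups, from 0.08 to 0.19, and none passed. In the sedentary group its lowest library was replicate 6 at 5.73 FPKM, where the other 9 had a mean of 19.1 FPKM. Without that library the value of Atf6 was negative in 4 of the 5 running groups, from -0.09 in 0-0-2 to -0.02 in 14-0-0, and 0.02 in 14-7-2, so its direction rests on 1 library.

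Inside the groups many of the chaperones and folding enzymes varied together from mouse to mouse. With each library taken as its deviation from the group mean, 14 of the other 33 members had a Pearson r with Hspa5 of at least 0.5 over 70 libraries, led by Manf (0.87), Pdia4 (0.86), Hsp90b1 (0.84) and Xbp1 (0.84). Another 11 had an r from 0.15 to 0.5, and 8 were lower, among them Ddit3 (0.02), Syvn1 (0.04), Ern1 (-0.12) and Atf6 (-0.14). Atf4 had 0.23. These are descriptions over libraries that share batches and tissue makeup, and leaving out sedentary replicate 6 moved Manf, Pdia4 and Hsp90b1 by less than 0.01 but Atf6 from -0.14 to -0.04 and Sel1l from -0.05 to 0.02. Members that vary together are not separate counts of evidence, so the number of members called in a comparison is not a number of independent results.

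**Figure D4:**
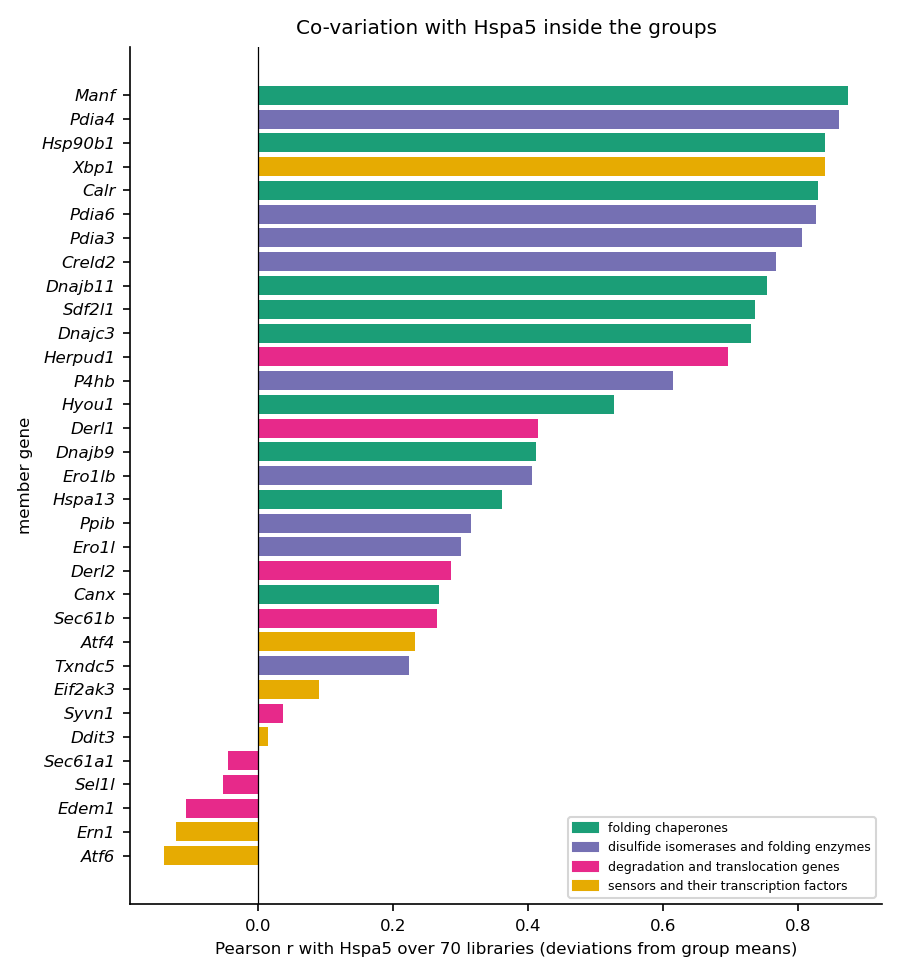
Pearson r (x axis) of each of 33 members (y axis) with Hspa5 over 70 libraries, after each group's mean was taken out, with colors for the roles. Of the 14 members at 0.5 or more, 12 are chaperones and folding enzymes, led by Manf at 0.87, with Xbp1 (0.84) and Herpud1 (0.70) among them; Atf6 (-0.14, or -0.04 without sedentary replicate 6), Ern1 and Edem1 lie below 0.

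The mean of the 34 members, each as log2 value minus its mean over 70 libraries, gave 1 level per library. It ran from -0.06 to 0.34 with a median of 0.05 in home cage, from -0.07 to 0.32 with a median of 0.02 in sedentary, and from -0.14 to 0.29 with a median of 0.05 in 14-14-0. The medians were -0.04 in 14-0-0, -0.03 in 14-7-0, -0.03 in 0-0-2 and -0.07 in 14-7-2, and the highest library of 14-7-0 and of 14-7-2 stood at 0.00 and 0.01. Its SD was 0.13 in home cage and in sedentary, 0.14 in 14-14-0, 0.09 in 14-0-0, 0.07 in 14-7-2, 0.06 in 0-0-2 and 0.05 in 14-7-0, and these spreads were not compared by a test. The highest libraries were home cage replicate 3 (0.34), sedentary replicate 0 (0.32) and 14-14-0 replicate 3 (0.29). Choroid plexus markers summed to 15626 FPKM in the first, 24.4 FPKM in the second and 11963 FPKM in the third.

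**Figure D5:**
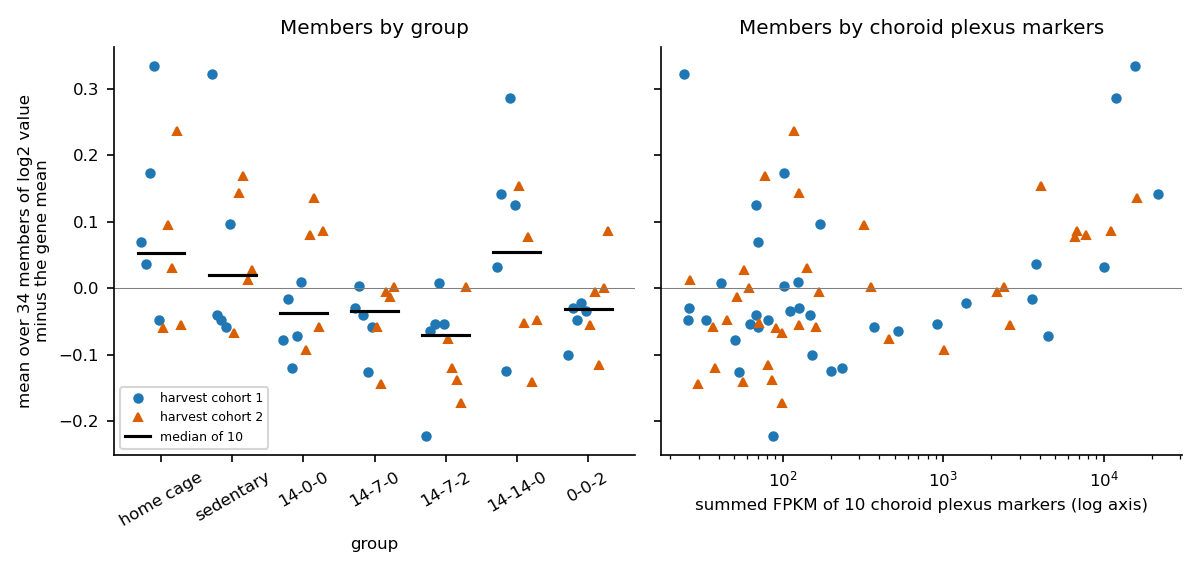
Mean over the 34 members of the log2 value minus the gene's mean (y axis) by group (left, bars at the median of 10) and against the summed FPKM of 10 choroid plexus markers on a log axis (right), with circles for harvest cohort 1 and triangles for harvest cohort 2. Sedentary replicate 0, at 24.4 FPKM, and home cage replicate 3, at 15626 FPKM, were both high. In the library of highest marker sum the level was 0.34 in home cage, 0.13 in 14-0-0, 0.14 in 14-14-0 and 0.09 in 0-0-2. It was -0.06 in sedentary, -0.01 in 14-7-0 and 0.00 in 14-7-2, whose highest sums did not pass 2393 FPKM. The relation of the 2 values was not tested.

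The genes outside the list most like it, by Pearson r over the 70 libraries with that mean level, were P4ha1 (0.74), Zfp36l1 (0.69), Cnst, Mlec and Slc5a3 (each 0.67), Tspan33, Pdk4 and Serpinh1 (each 0.66), Spcs2 (0.66) and Hey2 (0.65). P4ha1 encodes a collagen prolyl hydroxylase subunit that works with P4hb, Serpinh1 a collagen chaperone, Mlec a lectin of the endoplasmic reticulum and Spcs2 a subunit of signal peptidase.

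The rest of the pathway was read from lists of other genes, whose counts were not compared with those of the members by a test. Of all tested genes, 3.04% were lower and 6.11% higher in 14-0-0 against sedentary, and 1.66% and 1.6% in 14-7-0. The shares lower and higher were 1.75% and 3.19% in 14-14-0, 1.23% and 1.14% in 0-0-2, and 1.08% and 1.22% in home cage. In 14-7-2 they were 2.32% and 2.07%. These shares stand beside every list count against sedentary that follows, and the counts are a description. Against sedentary, 27 other folding and disulfide enzymes had 0 lower in all 5 running groups and 3 higher in 14-0-0. They had 1 higher in 14-7-0, 2 higher in 14-14-0, 0 higher in 0-0-2 and, among home cage animals, 1 higher. Qsox1, a sulfhydryl oxidase, was higher in 14-0-0 (0.24 ± 0.07, p = 0.003), 14-7-0 (0.15, p = 0.042) and 14-14-0 (0.20, p = 0.012). Fkbp9, a lumenal prolyl isomerase, was higher in 14-0-0 (0.31, p = 0.024) and 14-14-0 (0.38, p = 0.018), and home cage animals had 0.21 (p = 0.044).

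Of 33 translocation and glycosylation genes, 3 were higher in 14-0-0, led by Serp1 (0.22, p = 0.0046) and Srpr (0.15, p = 0.0054), and 2 were higher in 14-14-0, Tram1 (0.21, p = 0.02) and Stt3a (0.20, p = 0.036). In 14-7-0 2 were lower, Rpn1, a subunit of the oligosaccharyltransferase (-0.13, p = 0.042), and Srprb, a subunit of the receptor of the signal recognition particle (-0.21, p = 0.046), and 0 were called in 0-0-2 or home cage. Of 24 other degradation genes, 3 were higher in 14-0-0, with Vimp (0.19, p = 0.0068) and Erlec1 (0.23, p = 0.014) at the smallest p, and 0 were called in 14-7-0, 0-0-2 or home cage. Of 23 genes of transport from the endoplasmic reticulum to the Golgi, 5 were higher in 14-0-0, led by Tmed2 (0.16, p = 0.0078) and Surf4 (0.12, p = 0.033), and 0 were called in the other groups. Of 14 other sensors and transcription factors, 0 were called against sedentary in any group.

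Of 32 other genes of the PERK and ATF4 branch, 4 were lower and 1 higher in 14-0-0, 0 were called in 14-7-0, 3 were lower in 14-14-0, 1 was lower and 1 higher in 0-0-2, and 2 were lower in home cage. In 14-0-0, Eif2ak2, the kinase PKR that phosphorylates the same initiation factor as PERK, had 0.38 (p = 0.0033) and Mthfd2, a mitochondrial folate enzyme, -0.31 (p = 0.022). Stc2, a secreted glycoprotein, had -0.38 in 14-14-0 (p = 0.0042) and -0.22 in 0-0-2 (p = 0.013). Sars, a transfer RNA synthetase, had -0.14 in 14-14-0 (p = 0.0054), and Eif2ak2 had 0.22 in 0-0-2 (p = 0.045). In home cage the amino acid transporter gene Slc7a5 had -0.19 (p = 0.0066) and Ddit4 -0.30 (p = 0.024).

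Of 15 heat shock genes outside the endoplasmic reticulum, 1 was lower in each of 14-0-0, 14-14-0 and 0-0-2, and 0 in 14-7-0 and home cage. These were Dnajb1 in 14-0-0 (-0.25, p = 0.048) and 14-14-0 (-0.23, p = 0.049), and Cryab in 0-0-2 (-0.54, p = 0.017). The list medians against sedentary were -0.09, -0.10, -0.08 and -0.08 in 14-0-0, 14-7-0, 14-14-0 and 0-0-2, while the medians of all tested genes lay between -0.01 and 0.01.

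In 14-7-2 against sedentary, given without p since the members were chosen on it, the heat shock list had 4 lower (Cryab -0.56, Hspa8 -0.18), translocation and glycosylation 2 lower (Rpn1 -0.20, Rpn2 -0.11), the PERK and ATF4 branch 1 lower (Chac1 -0.41) and the folding enzymes 1 higher (Dnajc10 0.14).

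Between running groups, translocation and glycosylation and the other sensors each had 2 lower and 1 higher in 14-7-2 against 14-7-0. Of all tested genes 3.36% were lower and 2.03% higher in that comparison. There Wfs1, a membrane protein of the endoplasmic reticulum, was lower (-0.55, p = 0.0038), as was Rpn2 (-0.13, p = 0.0057), while Map3k5 (0.27, p = 0.029), Sec61a2 (0.19, p = 0.036) and Sec24d (0.13, p = 0.035) were higher. In 14-7-2 against 0-0-2, Rpn1 was lower (-0.10, p = 0.044) and Map3k5 higher (0.19, p = 0.045). In 14-7-0 against 14-0-0, Sdf2 (-0.12, p = 0.032), Ssr4 (-0.20, p = 0.029) and Lman2 (-0.13, p = 0.04) were lower and Slc7a5 higher (0.18, p = 0.045).

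Between harvest cohorts, where 8.29% of all tested genes were lower in cohort 2 and 3.58% higher, the folding enzymes had 3 lower in cohort 2 (Erp44 and Fkbp2 first, p = 0.0031 and 0.0032), translocation and glycosylation 3 lower and 1 higher (Sec62 and Ssr3, p = 0.00048 and 0.0027), and degradation 4 lower and 2 higher (Faf2 and Ube2g2, p = 0.00027 and 0.0076). The PERK and ATF4 branch had 3 lower and 3 higher (Nars and Slc7a5, p = 0.003 and 0.0037), the other sensors and factors 1 lower and 1 higher (Creb3 and Creb3l1, p = 0.029 and 0.04), transport 3 lower (Tmed9 and Sec23b, p = 0.015 and 0.025) and heat shock 2 lower and 4 higher (Bag3 and Hspb1, p = 0.0065 and 0.0077).

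Activity and time-of-day genes were read in the same comparisons, and their part in the members' levels was not tested. Of 12 immediate early genes tested, which answer to neuronal activity, 7 were lower than in sedentary in 14-0-0, 4 in 14-7-0, 5 in 14-14-0 and 3 in 0-0-2, and 0 were called in home cage. Egr1 had -0.63 in 14-0-0 (p = 0.00053), -0.37 in 14-7-0 (p = 0.011) and -0.43 in 0-0-2 (p = 0.022). Npas4 had -0.60 in 14-0-0 (p = 0.009), -0.80 in 14-14-0 (p = 0.0022) and -0.54 in 0-0-2 (p = 0.017), and Fos -0.74 in 14-7-0 (p = 0.011) and -0.91 in 14-14-0 (p = 0.0026). Their summed level ran from 139 to 410 FPKM in sedentary, 106 to 258 in 14-0-0 and 143 to 231 in 14-7-0. In 14-7-2, 7 were lower than in sedentary (Fos -1.04, Egr1 -0.67), 2 lower than in 14-7-0 (Egr1 -0.30, p = 0.0025, and Nr4a1 -0.35, p = 0.012) and 1 lower than in 0-0-2 (Fosl2 -0.33, p = 0.019). Egr1 was higher in 14-7-0 than in 14-0-0 (0.26, p = 0.02), and Egr4 and Dusp1 were higher in cohort 2 (p = 0.012 and 0.021).

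Of 12 clock genes, 7 were lower and 1 higher than in sedentary in 14-0-0. The counts lower and higher were 1 and 1 in 14-7-0, 0 and 0 in 14-14-0 and 5 and 1 in 0-0-2. They were 4 and 1 in both 14-7-2 and home cage. Per2 had -0.45 in 14-0-0 (p = 7.2e-05), -0.24 in 14-7-0 (p = 0.035), and home cage animals had -0.43 (p = 0.0049). Ciart had -0.71 in 14-0-0 (p = 0.00015), -0.48 in 0-0-2 (p = 0.0073), -0.48 in home cage (p = 0.0012) and -0.24 in 14-7-2 against 14-7-0 (p = 0.042). Arntl had 0.18 in 14-7-0 (p = 0.039) and 0.32 in 0-0-2 (p = 0.0051). In 14-7-2 against sedentary Ciart had -0.42 and Arntl 0.29, and against 0-0-2 Npas2 had -0.35 (p = 0.0072). In 14-7-0 against 14-0-0 6 were higher and 1 lower, led by Dbp (0.45, p = 0.001) and Ciart (0.53, p = 0.0021), and 0 were called between cohorts.

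Markers of other cell types differed less than those of choroid plexus. Against sedentary, all 10 choroid plexus markers were higher in 14-0-0 and in 14-14-0 and 5 were higher in home cage. In 14-7-0 and 0-0-2, 0 were called. Of 7 neuronal markers 1 was lower in 14-14-0, of 6 oligodendrocyte markers 3 were lower in 0-0-2, and of 7 microglial markers 1 was higher in 14-7-0. Of 6 astrocyte markers 1 was higher in home cage, of 5 endothelial markers 1 was higher in each of 14-0-0, 14-14-0 and home cage, and of 4 meningeal markers 2, 3 and 2 were higher there. Of 5 thalamic markers 0 were called in any comparison, and their sum was 99.8 FPKM in sedentary replicate 6 against a group median of 29.2. Their highest sum was 103 FPKM in 14-7-2, 84.9 in 0-0-2 and 71.9 in 14-14-0, and 36.3 or less in home cage, 14-0-0 and 14-7-0. The part of all these cell type markers in the members' levels was not tested.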

How the data were processed

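The processed data are FPKM values per gene symbol, deposited by the authors for 70 dorsal hippocampus libraries, with no read counts. By the study's methods, poly-A selected RNA was sequenced as single reads, reads were aligned with ELAND and Bowtie, reads with several locations or many mismatches were removed, and FPKM were computed by the Tuxedo protocol. The submitters' processing notes name Bowtie, Cuffnorm and mm10. Versions of Bowtie and Cuffnorm are not given in the sources used here. FPKM carry no read depth, so no counting interval is given, and low genes are the least precise.

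Values were taken as log2(FPKM + 0.1), which understates the change of low genes, and genes averaging 1 FPKM or more across the series (12994) entered limma 3.58.1 (R 4.3.3, two-sided, trend) for the 20 libraries of each pair of groups, with no covariate. As in the study, a call needed p under 0.05 before adjustment, and Benjamini-Hochberg adjustment was made over all genes tested. Samples were grouped by title. The labels give no litter or batch beyond harvest cohort. Cyber-T, the test of the study, was rewritten as an alternative. Both the limma and the Cyber-T fits were tested on simulated data. Tables and figures were made in Python 3.11.15.

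The members, the 9 lists of other genes and the 8 marker lists were chosen with earlier results of these data known. All members are accounted for. Group values are given for members called in any contrast but 14-7-2 against sedentary (up to the 3 of smallest p in each), for the 5 of largest change in that contrast, and for Hspa5, Hsp90b1, Xbp1, Atf4 and Ddit3. From each list, genes called are named up to the 2 of smallest p in a contrast, except for a result not reported here. Other members are named with values to complete an account, and were chosen after their values were seen. Alternatives were another pseudocount, other minimum means, median-ratio scaling, a joint fit, covariates, a replicate block, Cyber-T (window of 101 genes, 10 prior degrees of freedom), a stricter p, each cohort alone and single libraries left out.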

Additional observations from a re-analysis of the deposited data

Results flagged for a closer look

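Members were screened in each group of 10 for a highest or lowest library whose gap to the nearest other was, as a share of the group's range, above Dixon's critical value for 10 samples. This picked out 28 of 238 gene and group pairs. Chance alone picks out about 1 in 20 groups, and members that vary together are not independent.

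In 3 libraries several chaperones stood high together. In home cage replicate 3, Hsp90b1 was at 177 FPKM, Dnajb9 at 34.8, Dnajc3 at 29.3 and Pdia3 at 132, each above the other 9. In 14-7-2 replicate 9, Hsp90b1 was at 142 FPKM, Dnajc3 at 19.7, Pdia3 at 110 and Pdia4 at 19.6, while Sec61a1 at 21.9 and Ddit3 at 7.36 were below the other 9. In 0-0-2 replicate 9, Hsp90b1 was at 153 FPKM, Dnajb11 at 36.8, Dnajc3 at 23.2, Manf at 26.1 and Pdia3 at 116. These 3 libraries had the highest choroid plexus sums of their groups, at 15626, 2393 and 11064 FPKM, and the part of that tissue was not tested.

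Of the other single values, Canx stood low at 70.2 FPKM and Sel1l at 33.3 in 14-0-0 replicate 5, and Sel1l at 34 in 0-0-2 replicate 8. Hspa13 stood low at 11.6 FPKM and Ero1l at 11.7 in sedentary replicate 4, and Hspa13 at 13.8 in 14-14-0 replicate 8. In 14-7-0 replicate 1 Hspa13 was high at 20.5 FPKM, Ero1l at 19.0 and Ero1lb at 7.52. In 14-7-0 replicate 9 P4hb was high at 57.2 FPKM and Sec61a1 low at 22.2. Txndc5 was high in sedentary replicate 6, at 38.4 FPKM, and in 0-0-2 replicate 4, at 34.1.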

How the results depend on the processing

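No direction of a called member turned in 858 repeats of its fit, and 165 of them lost the call. Counts for 14-7-2 against sedentary describe the contrast the members were chosen on. A stricter unadjusted p under 0.01 left 6 members in 14-7-2 against sedentary, 1 in each of 14-0-0, 14-7-0 and 0-0-2, 0 in 14-14-0, 2 in 14-7-2 against 14-7-0, 0 in 14-7-0 against 14-0-0 and 0 between cohorts. Cohort 1 alone gave 5 in 14-7-2, 2 in 14-7-0 and 0 in 14-14-0 against sedentary and 2 in 14-7-2 against 0-0-2. Cohort 2 alone gave 7 in 14-7-2, 1 in 14-0-0 (higher), 3 in 14-7-0 and 0 in 0-0-2 against sedentary, and 2 in 14-7-2 against each of 14-7-0 and 0-0-2. The 1 call of 14-14-0 became 0 with no minimum, median-ratio scaling, the choroid plexus covariate, a joint fit and the cohort covariate. The choroid plexus covariate gave 2 in 14-7-2 against 0-0-2, 2 in 14-7-0 against 14-0-0 (both higher) and 6 between cohorts, a joint fit gave 0 in 14-7-2 against 0-0-2, and Cyber-T gave 2 in 14-7-2 against 14-7-0. Of these, the stricter p can only remove calls, and the smaller number of libraries in each cohort is known to weaken them by construction. For the other settings the cause was not tested.

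Leaving out 1 sedentary library at a time, which for all but replicate 6 was chosen after seeing the data, gave 10 to 15 members in 14-7-2, 3 to 8 in 14-0-0, 6 to 13 in 14-7-0, 0 to 2 in 14-14-0, 3 to 6 in 0-0-2 and 0 to 1 in home cage. Without 14-7-0 replicate 4 the counts were 8 against sedentary, 4 in 14-7-2 against 14-7-0 and 1 against 14-0-0. The cohort comparison gave 3 to 4 without either library.

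Whether replicate numbers pair the samples was not settled. The lowest correlation of same-numbered deviations was below 0.1 in all 9 group comparisons, which cannot exclude a pairing of other libraries. In 14-7-2 against 0-0-2, 5 of 10 libraries matched their own number best, with a median correlation of 0.15. The main fits took no pairing, and a replicate block was run as an alternative. With a replicate block the counts were 11, 9, 10, 1, 5 and 0 in 14-7-2, 14-0-0, 14-7-0, 14-14-0, 0-0-2 and home cage against sedentary, 5 and 3 in 14-7-2 against 14-7-0 and 0-0-2, and 1 in 14-7-0 against 14-0-0. For the cohort comparison the joint fit, cohort covariate, block, Cyber-T and single cohorts were not run. FPKM hold no read counts, so depth limits the low members most, Derl3 and Trib3 among them.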
